A study of Mus musculus with 4 samples.

Results

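The MHC class I presentation genes followed here were 10 genes of the class I pathway, taken by symbol from the deposited table of 47643 genes: the heavy chain genes H2-K1, H2-D1, H2-T23 and H2-Q7, the light chain gene B2m, the peptide transporter genes Tap1 and Tap2, the loading factor gene Tapbp, the peptide trimming gene Erap1 and the transactivator gene Nlrc5. All 10 were found in the counts and in the deposited rlog values, and all 10 had enough counts to be tested. The study sorted splenic CD4+ T cells of Tg4 mice that also carried the Nr4a3-Tocky and Il10-GFP reporters, 24 h after the [4Y] MBP peptide was injected under the skin at 4 mg/kg. Tg4 is a T cell receptor transgene whose receptor recognises myelin basic protein, and the Nr4a3-Timer protein marks cells whose receptor has signalled recently. Both sorted populations were Timer+, and they differed in the Il10 reporter, and each of them, Il10-EGFP+ and Il10-EGFP−, gave 2 libraries. Every mouse received the peptide, so neither population is an unimmunised control. The EGFP gate reports transcription from the Il10 locus in one sorted pool and does not mark a fixed lineage.

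MHC class I molecules display peptides of the cell's own proteins to CD8+ T cells and to receptors on natural killer cells, and nearly every nucleated cell, including a CD4+ T cell, carries them. A polymorphic heavy chain pairs with β2-microglobulin, TAP1 and TAP2 carry cytosolic peptides into the endoplasmic reticulum, tapasin holds the empty heavy chain at the transporter, and ERAP1 cuts peptides to a length that the groove accepts. NLRC5 drives transcription of heavy chain genes, B2m, Tap1 and an immunoproteasome gene, and IFNγ raises the whole set. The Tg4 receptor itself reads its peptide on an MHC class II molecule, so the class I genes describe what the T cells display and not how they were stimulated.

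Among the class I presentation genes, Erap1 was the single gene called different between the populations. Of the 10 genes, 1 passed an adjusted p of 0.05 in edgeR's quasi-likelihood test and 9 did not, against 4.09% of the 9608 genes tested. Erap1 fell in Il10-EGFP+ T cells, to 43.6 ± 5.65 CPM from 93.7 ± 7.77 CPM in the Il10-EGFP− population (SD over 2 libraries each). In that direction 1.74% of all tested genes were called. The other 9 genes had log2 fold changes between -0.26 and 0.29, and their adjusted p-values ran from 0.734 to 0.991 (edgeR). The median log2 fold change was 0.05 over the 10 genes and 0.00 over all tested genes. DESeq2's Wald test called 0 of the 10, with 1 of them (Erap1) at an unadjusted p under 0.05 against 6.09% of all tested genes, and called 2.1% of the genes to which it gave an adjusted p. CPM here means counts scaled to a library of 1000000 with TMM factors, and fold changes are Il10-EGFP+ over Il10-EGFP−. In these bulk samples fewer cells of a type and less RNA per cell cannot be told apart.

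The libraries held 644679 to 730330 counts, which is shallow, and they came from a 3′ end protocol in which a transcript gives reads near its end, so that CPM does not scale with transcript length. The labels describe 2 mice per population and do not say whether the same number in both populations marks one mouse. The methods state that another replicate pair was removed as an outlier, and it was not analysed here. CD4+ T cell markers were abundant in every library, at a summed 3681 to 3966 CPM in Il10-EGFP− and 4256 to 4581 CPM in Il10-EGFP+ T cells. Reads were aligned to the C57BL/6J genome, while the restricting class II molecule of Tg4 belongs to the H-2u haplotype. The labels do not give the H-2 haplotype of these mice, and the effect of H2 polymorphism on the counts was not tested.

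The promoter stretches of the 2 most abundant heavy chain genes, of B2m and of Erap1 are printed below. They run from 200 bases before to 30 bases after the start. Sequences and starts are RefSeq's on GRCm38.p6, 5′ to 3′ along the gene: H2-K1 at chr17:34000318-34000547 on the minus strand, and H2-D1 at chr17:35262894-35263123, B2m at chr2:122147487-122147716 and Erap1 at chr13:74639653-74639882 on the plus strand. Capitals mark 4 motifs searched on both strands, GGGATTC (part of the enhancer A site of NF-κB), TGACG (the X2 box), CCAAT (the Y box, ATTGG when inverted) and GAAANNGAA (the core of the interferon-stimulated response element, read on either strand).
H2-K1: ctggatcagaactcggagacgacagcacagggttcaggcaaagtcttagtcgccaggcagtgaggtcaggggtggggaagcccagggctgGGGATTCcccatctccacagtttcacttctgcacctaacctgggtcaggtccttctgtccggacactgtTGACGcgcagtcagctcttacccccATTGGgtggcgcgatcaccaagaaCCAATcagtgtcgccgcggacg
H2-D1: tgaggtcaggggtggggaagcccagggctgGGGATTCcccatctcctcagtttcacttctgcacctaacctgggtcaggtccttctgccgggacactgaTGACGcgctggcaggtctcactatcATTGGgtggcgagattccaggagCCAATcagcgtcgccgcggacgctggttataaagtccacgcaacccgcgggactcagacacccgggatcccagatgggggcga
B2m: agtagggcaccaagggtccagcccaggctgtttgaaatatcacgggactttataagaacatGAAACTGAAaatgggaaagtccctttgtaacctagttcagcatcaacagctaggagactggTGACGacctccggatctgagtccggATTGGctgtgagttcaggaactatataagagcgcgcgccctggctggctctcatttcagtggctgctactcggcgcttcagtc
Erap1: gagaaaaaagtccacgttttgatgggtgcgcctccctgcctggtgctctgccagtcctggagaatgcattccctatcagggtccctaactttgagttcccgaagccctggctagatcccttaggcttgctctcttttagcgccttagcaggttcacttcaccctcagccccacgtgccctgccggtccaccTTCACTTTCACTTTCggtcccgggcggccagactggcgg

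In H2-K1 and H2-D1 the enhancer A letters began 69 bases before the X2 box, and the X2 box began 25 bases before the inverted Y box. H2-Q7 had the same arrangement with 68 and 24 bases, and B2m had the X2 box and the inverted Y box, again 25 bases apart, without the enhancer A letters. The Erap1 stretch held none of these 3 motifs and held the interferon core in 2 overlapping copies, at -9 to -1 and -3 to 6 counted from the first transcribed base as 1. Over the 300 bases from 250 before to 50 after the start, the interferon core was present in 3 of the 8 genes with a promoter entry (H2-T23, B2m and Erap1), against 8.56% of 32851 mouse promoters of that length. GGGATTC was present in 3 of the 8 (3.08% of all promoters), TGACG in 5 of the 8 (20.8%) and CCAAT in 7 of the 8 (37.4%), and Erap1 was the member without CCAAT. Tap2 and Nlrc5 had no entry. The interferon core was searched in the letters given above alone, and variant spellings were not searched. The lack of a match in H2-K1, H2-D1, H2-Q7, Tap1 and Tapbp therefore does not show that they have no interferon element. A match describes letters only, and binding was not measured.

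**Figure D1:**
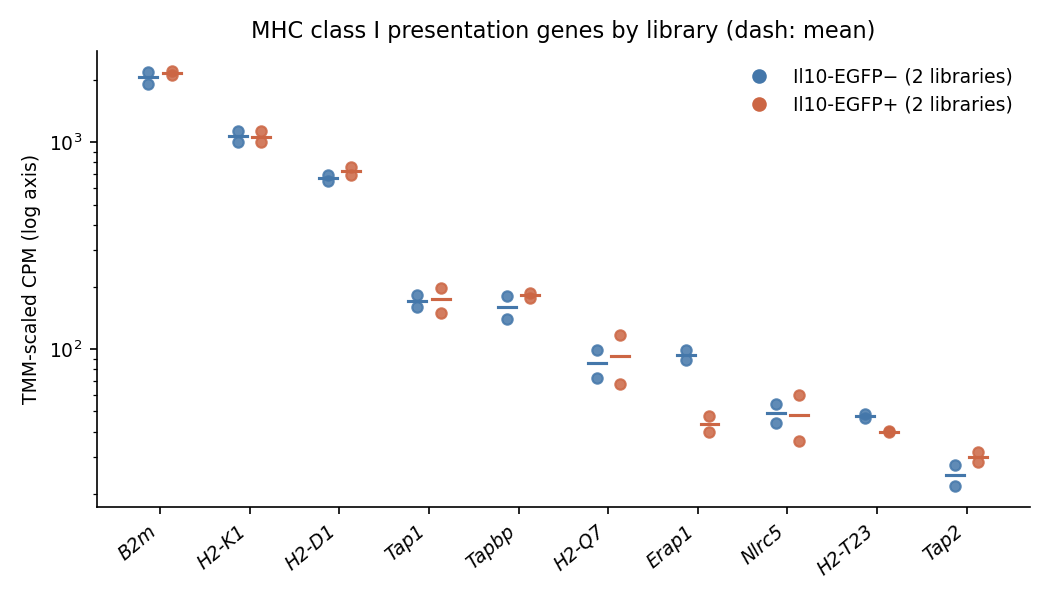
TMM-scaled CPM (log axis) of the 10 class I presentation genes in each library, in order of mean level, with Il10-EGFP− libraries in blue, Il10-EGFP+ libraries in orange and dashes at the population means (n = 2 each). The points of a gene lie close together for 9 genes, and the Erap1 points of the populations are apart, at 88.2 and 99.2 CPM against 39.6 and 47.6 CPM.

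B2m, which encodes the light chain shared by all class I molecules, was the most abundant of the 10, with 1414 and 1500 counts across the Il10-EGFP− libraries, against 1332 and 1522 across the Il10-EGFP+ libraries. It was followed by H2-K1 and H2-D1, which encode the classical heavy chains, at a mean of 1067 and 699 CPM over the 4 libraries. Tap1 and Tapbp came next at 172 and 171 CPM, then H2-Q7 at 89.3, Erap1 at 68.7, Nlrc5 at 48.6, H2-T23 at 43.9 and Tap2 at 27.4 CPM. The ranges over the libraries overlapped between Tap1 and Tapbp, H2-Q7 and Erap1, Erap1 and Nlrc5, and Nlrc5 and H2-T23, so these neighbours in the order were not separated by their spread. The other 5 steps of the order were free of overlap. Together, heavy chain genes and B2m took 0.406% to 0.424% of the counts of a library (lowest and highest 95% Wilson bounds 0.391% and 0.440%, which cover counting error only).

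Among the heavy chain genes, H2-K1 had 836 and 687 counts across the Il10-EGFP− libraries, against 631 and 783 across the Il10-EGFP+ libraries. After scaling this was 1135 and 1002 CPM against 999.8 and 1129.6 CPM, and the populations overlapped. The log2 fold change was -0.01 (standard error 0.13, 95% interval -0.26 to 0.25, adjusted p = 0.991, edgeR). H2-D1 had 512 and 445 against 478 and 481 counts, or 695 and 649 CPM against 757 and 694 CPM, with the highest value in an Il10-EGFP+ library and an overlap between the populations. Its log2 fold change was 0.11 (standard error 0.13, 95% interval -0.15 to 0.37, adjusted p = 0.784, edgeR). For both genes the interval excludes a 1.5-fold difference in either direction.

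H2-Q7, a gene of the Qa-2 antigen, had 73 and 50 counts across the Il10-EGFP− libraries, against 74 and 47 across the Il10-EGFP+ libraries. One library of each population stood higher, at 99.1 and 117 CPM, and the other lower, at 73.0 and 67.8 CPM. The log2 fold change was 0.09 (95% interval -0.41 to 0.59, adjusted p = 0.935, edgeR). H2-T23 encodes Qa-1, which presents leader peptides of other class I heavy chains to the NKG2A receptor of natural killer and T cells. It had 36 and 32 against 25 and 28 counts, and both Il10-EGFP+ libraries (39.6 and 40.4 CPM) lay below both Il10-EGFP− libraries (48.9 and 46.7 CPM). Its log2 fold change was -0.26 (95% interval -0.90 to 0.39, adjusted p = 0.796, edgeR). Without overlap between the populations were 3 of the 10 genes, H2-T23, Tap2 and Erap1, against 44.6% of all tested genes.

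The heavy chain genes share sequence, so a read can match more than one of them. Coding sequences of H2-K1 and H2-D1 were 88.3% identical, and those of the other pairs among H2-K1, H2-D1, H2-T23 and H2-Q7 were 74.7% to 81.5% identical. Since the reads come from transcript ends, the last 300 bases of each reference transcript were cut into 251 windows of 50 bases and searched in the transcripts of all other genes. H2-K1 shared 0.797% of its windows, with H2-D1 alone, and H2-Q7 shared 0. H2-D1 shared 17.1% of its windows with 143 genes in all, of which H2-K1 (0.797% of the windows) was the single class I gene. H2-T23 shared 56.2% with 150 genes, most of them outside the class I family. Its largest partners were Rab33b (31.1%) and Hook2 (24.3%), and its class I partners were H2-Bl (19.5%) and the pseudogene H2-T-ps (7.97%). H2-Bl had 0 counts in every library. The counts of H2-T23 are therefore less certain than those of H2-K1 and H2-Q7.

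To avoid the split of reads between genes, the counts of 22 heavy chain genes were summed. The sums were 1549 and 1321 in the Il10-EGFP− and 1309 and 1447 in the Il10-EGFP+ libraries, and H2-K1 and H2-D1 made up 84.7% to 87.4% of them. Fitted as 1 feature, the sum had a log2 fold change of 0.05 (95% interval -0.19 to 0.28, adjusted p = 0.923, edgeR). Of the 22 genes, 12 were tested and 0 were called by edgeR, and 0 had an unadjusted p under 0.05 in edgeR or DESeq2. Their median log2 fold change was 0.09. The remaining 10 were under the filter, and 6 of these (H2-Q10, H2-M2, H2-M5, H2-M9, H2-Bl and Cd1d2) had 0 counts in all libraries.

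Light chain counts, and the ratio of heavy to light chain counts, overlapped between the populations. B2m had 1919 and 2189 CPM in the Il10-EGFP− and 2110.6 and 2196 CPM in the Il10-EGFP+ libraries, with overlapping populations and a log2 fold change of 0.07 (standard error 0.12, 95% interval -0.17 to 0.30, adjusted p = 0.872, edgeR). Per B2m count there were 1.10 and 0.881 heavy chain counts in the Il10-EGFP− and 0.983 and 0.951 in the Il10-EGFP+ libraries, so that both Il10-EGFP+ values lay between the Il10-EGFP− values. The means were 0.988 ± 0.152 and 0.967 ± 0.0226 (SD, n = 2 each). An exact two-sided permutation test of 2 against 2 libraries cannot give a p below 0.333, so no test of the ratio was made.

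**Figure D2:**
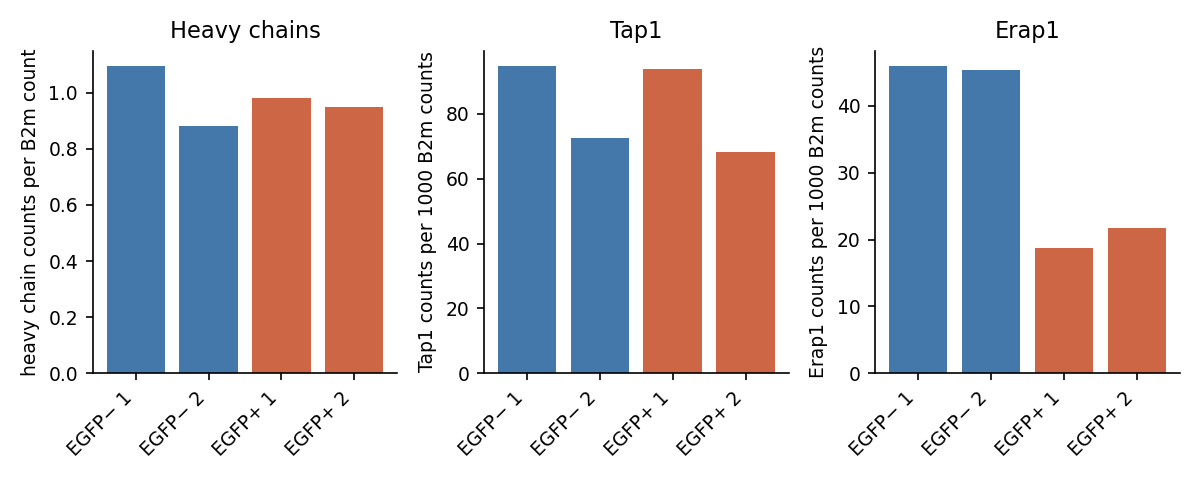
Counts of heavy chain genes per B2m count, of Tap1 per 1000 B2m counts and of Erap1 per 1000 B2m counts in each of the 4 libraries (bars from 0, Il10-EGFP− blue, Il10-EGFP+ orange). The Il10-EGFP+ bars lie within or overlap the Il10-EGFP− range for heavy chains and Tap1, and for Erap1 they stand at 18.8 and 21.7 against 46.0 and 45.3.

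The peptide transporter is a dimer of TAP1 and TAP2. Tap1 had 134 and 109 counts across the Il10-EGFP− libraries, against 125 and 104 across the Il10-EGFP+ libraries, or 182 and 159 CPM against 198 and 150.04 CPM. The Il10-EGFP+ libraries held both the highest and the lowest value, and the log2 fold change was 0.02 (95% interval -0.35 to 0.40, adjusted p = 0.983, edgeR). Tap2 was the scarcest member, with 16 and 19 against 18 and 22 counts. Both Il10-EGFP+ libraries, at 28.5 and 31.7 CPM, lay just above the Il10-EGFP− libraries at 21.7 and 27.7 CPM. Its log2 fold change was 0.29 with a standard error of 0.41 (adjusted p = 0.824, edgeR). The 95% interval of -0.53 to 1.11 reached past a 2-fold increase, so an increase of that size was not excluded.

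Tapbp encodes tapasin, which bridges the empty heavy chain to the transporter. It had 133 and 96 counts across the Il10-EGFP− libraries, against 112 and 129 across the Il10-EGFP+ libraries, or 181 and 140.1 CPM against 177 and 186 CPM. The Il10-EGFP− libraries spread more widely than the Il10-EGFP+ libraries and overlapped them. The log2 fold change was 0.18 (95% interval -0.19 to 0.55, adjusted p = 0.734, edgeR).

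Nlrc5, the transactivator of the class I genes, had 40 and 30 counts across the Il10-EGFP− libraries, against 38 and 25 across the Il10-EGFP+ libraries. In CPM this was 54.3 and 43.8 against 60.2 and 36.1, so that the Il10-EGFP− values lay inside the range of the Il10-EGFP+ values. The log2 fold change was -0.04 (95% interval -0.68 to 0.60, adjusted p = 0.983, edgeR). H2-Q7 and Tap1 had the same layout over the libraries as Nlrc5, with the Il10-EGFP+ libraries at both ends of the range. With 4 libraries no correlation was computed. Of the 9 genes that were not called, 5 had a 95% interval within a 1.5-fold difference (H2-K1, H2-D1, B2m, Tap1 and Tapbp), 8 within a 2-fold difference, and Tap2 was the exception.

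**Figure D3:**
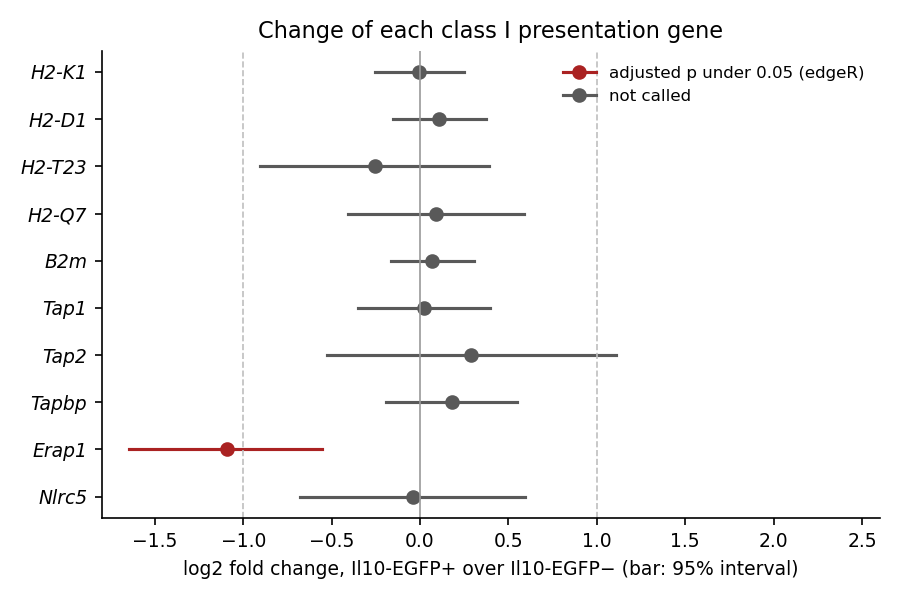
Log2 fold change of each of the 10 genes, Il10-EGFP+ over Il10-EGFP− T cells, with 95% intervals from the edgeR fit as bars and dashed lines at a 2-fold difference. The interval of Erap1 (red) lies between -1.64 and -0.55, and the intervals of the other 9 genes (grey) include 0.

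Erap1 encodes the aminopeptidase of the endoplasmic reticulum that trims the front end of peptides before they are loaded, and its double interferon core is shown above. It had 65 and 68 counts across the Il10-EGFP− libraries, against 25 and 33 across the Il10-EGFP+ libraries. Both Il10-EGFP+ libraries, at 39.6 and 47.6 CPM, lay well below both Il10-EGFP− libraries at 88.2 and 99.2 CPM. The level was 2.14-fold lower in Il10-EGFP+ T cells (95% interval 1.47 to 3.12), or -1.09 on the log2 scale (standard error 0.27, edgeR adjusted p = 0.00974). By p, Erap1 stood at place 61 among the 167 genes called lower. In the deposited rlog values, which draw low counts towards the gene mean, it went from 5.64 and 5.70 to 5.29 and 5.35 on the log2 scale.

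Relative to other members, Erap1 gave 46.0 and 45.3 counts per 1000 B2m counts in the Il10-EGFP− and 18.8 and 21.7 in the Il10-EGFP+ libraries. Tap1, by contrast, gave 94.8 and 72.7 against 93.8 and 68.3 per 1000 B2m counts, with overlap. Per 100 Tap1 counts, Erap1 stood at 48.5 and 62.4 against 20.0 and 31.7 counts, again without overlap. Both ratios thus set the populations apart in the direction of the scaled counts.

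The Erap1 call depended on the test and on single libraries. DESeq2 gave a log2 fold change of -1.10 with an adjusted p of 0.199. In the edgeR fit the adjusted p became 0.0798 when Il10-EGFP− replicate 2 was left out and 0.0896 when Il10-EGFP+ replicate 1 was, with log2 fold changes of -1.01 and -0.97. Over 16 alternatives the log2 fold change ran from -1.24 to -0.35, the last on the rlog scale, and the adjusted p from 0.00264 to 0.530, and 12 of the 16 kept the call.

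**Figure D4:**
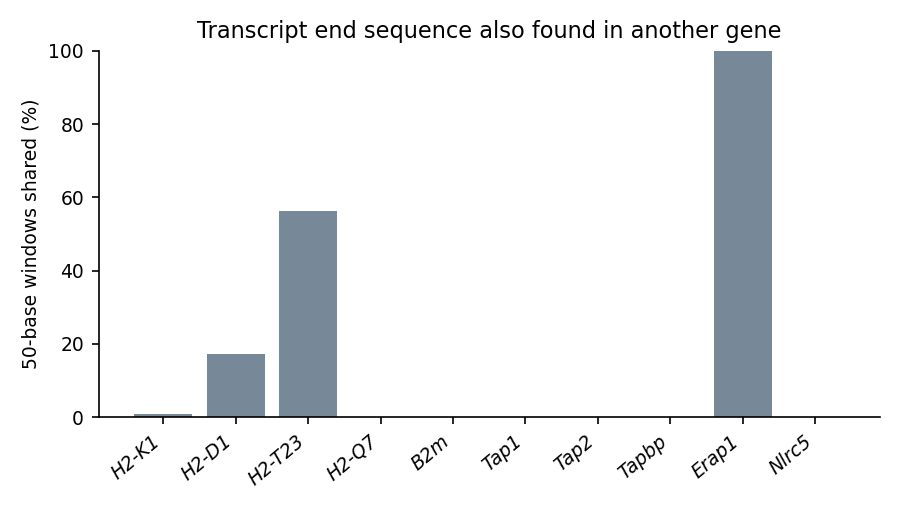
Percent of the 251 windows of 50 bases in the last 300 bases of each member's reference transcript that also occur, on either strand, in a transcript of another gene. The bar of Erap1 reaches 100%, with its antisense neighbour Cast, followed by H2-T23 at 56.2% and H2-D1 at 17.1%, and 6 members stand at 0.

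The end of Erap1 overlaps another gene. On GRCm38, Erap1 (ENSMUSG00000021583) runs from 74639568 to 74693201 on the plus strand of chromosome 13, and exons of Cast, which encodes the calpain inhibitor calpastatin on the opposite strand, cover 834 bases from 74692368 to 74693201. The longest coding Erap1 transcript ends inside the overlap, so all 251 of its windows also occur in Cast, and the other 3 annotated coding transcripts, all short, end elsewhere. Cast had 31 and 18 counts across the Il10-EGFP− libraries, against 23 and 39 across the Il10-EGFP+ libraries, with a log2 fold change of 0.44 and an adjusted p of 0.610 (edgeR). The strand option of the counting was not given in the sources used here. Without strand, reads from Erap1 and from Cast could not be told apart in those 834 bases, and the part of this overlap in the Erap1 result was not tested.

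The other members were less affected by neighbours. H2-K1, H2-D1, H2-T23, H2-Q7 and B2m had no overlapping gene. Tap1 overlaps Psmb9, the immunoproteasome gene read from the opposite strand, which had 111 and 116 against 93 and 98 counts and a log2 fold change of -0.15 (edgeR adjusted p = 0.80). Tapbp overlaps Zbtb22 on its own strand, with 11 and 7 against 14 and 7 counts. Nlrc5 overlaps the antisense gene 9330175E14Rik, with 8 and 9 against 9 and 1 counts, and the genes antisense to Tap2 had 0 counts in all libraries. H2-K1, H2-D1, H2-T23, H2-Q7, Tap1, Tap2 and Tapbp lie on chromosome 17, between 33915899 and 36032855, whereas B2m lies on chromosome 2, Erap1 on chromosome 13 and Nlrc5 on chromosome 8.

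The steps around the members were described from lists of further class I genes. In peptide generation, which covers the immunoproteasome, its activators and the cytosolic peptidases, 1 of 11 genes was called by edgeR, and that was Erap1. The share called over all tested genes was 4.09%. The median log2 fold change of the list was -0.12. The 2 most abundant genes were the proteasome activator subunits Psme1 and Psme3. Psme1 had 234 and 189 against 172 and 189 counts and a log2 fold change of -0.12 (edgeR adjusted p = 0.797). Psme3 had 223 and 219 against 151 and 146 counts, without overlap, and a log2 fold change of -0.47 (edgeR adjusted p = 0.0877), which missed the threshold.

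In loading and folding, which covers the transporter, tapasin and the chaperones of the endoplasmic reticulum, all 14 genes were tested and 0 were called by edgeR or DESeq2. In each of these tests 1 gene, Hspa5, had an unadjusted p under 0.05. Hspa5 encodes the chaperone BiP, and it had 1146 and 1270 against 782 and 1007 counts, with a log2 fold change of -0.34 (95% interval -0.59 to -0.09, adjusted p = 0.113, edgeR). The other of the 2 most abundant genes was B2m. The median log2 fold change of the list was 0.10, and 12 of the 14 intervals lay within a 2-fold difference.

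Among the regulators of class I transcription, 15 of 17 genes were tested and 0 were called by edgeR or DESeq2. Unadjusted p-values were under 0.05 for 2 genes in edgeR and 1 in DESeq2, against 15.5% and 6.09% of all tested genes. Irf1, which binds the interferon element of class I promoters, had 114 and 120 against 112 and 124 counts and a log2 fold change of 0.11 (edgeR adjusted p = 0.861). The median of the list was 0.14.

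In the IFNγ receptor and its feedback, 1 of 6 tested genes was called by edgeR, against 4.09% of all tested genes. Ifngr1, the ligand-binding receptor chain, rose in Il10-EGFP+ T cells from 31 and 44 to 69 and 60 counts, with a log2 fold change of 0.88 (95% interval 0.35 to 1.42, adjusted p = 0.0406, edgeR), and DESeq2 gave an adjusted p of 0.404. Jak1, the kinase on that chain, had 270 and 255 against 255 and 243 counts and a log2 fold change of 0.03 (edgeR adjusted p = 0.969). Socs3, a feedback inhibitor of cytokine receptors, had 56 and 25 against 59 and 71 counts and a log2 fold change of 0.79 (edgeR adjusted p = 0.0848). The gene of the receptor's other chain, Ifngr2, had 0 and 3 against 0 and 0 counts and was not tested.

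**Figure D5:**
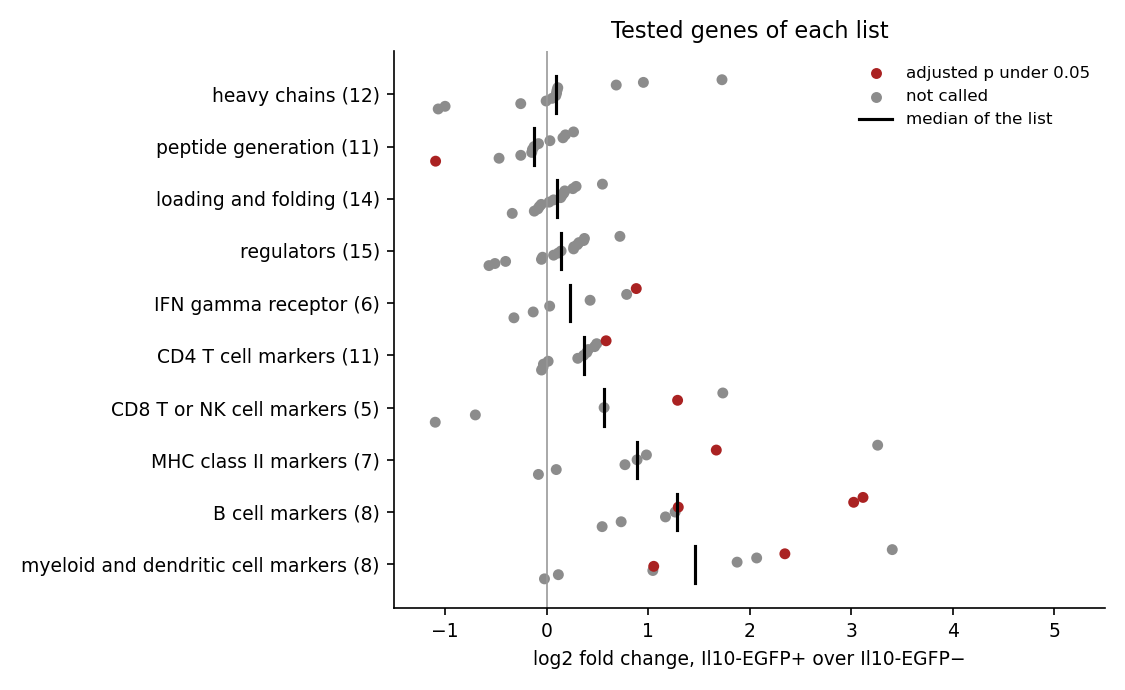
Log2 fold changes of the tested genes of each list, Il10-EGFP+ over Il10-EGFP− T cells, with genes past an adjusted p of 0.05 (edgeR) in red, the number of tested genes in parentheses and a line at each list's median. Jchain, a B cell list gene with 0 counts in both Il10-EGFP− libraries, counts in the median and is not drawn, since its fold has no fixed value. The class I lists centre near 0, with medians from -0.12 to 0.14. The medians of B cell, myeloid and MHC class II genes lie at 0.89 or above. These include genes that passed the filter only through the Il10-EGFP+ libraries (among them Jchain, Cd22, Csf1r and H2-DMb2), which can raise a median.

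The summed markers of each other cell type list stood below the CD4+ T cell sum and were higher in both Il10-EGFP+ libraries. Single markers also went the other way, such as Cd8a, Cd8b1 and Cd79a, or were flat, such as Cd68 and Itgam. Of the B cell list, 4 of 8 tested genes (Ighm, Igkc, Cd22 and Jchain) were called higher in edgeR, against 2.35% of all tested genes. Cd22 and Jchain reached the filter of 10 summed counts only through the Il10-EGFP+ libraries, so the filter itself favoured their calls. With at least 10 counts in every library the list had 1 call. The summed level was 117 to 160 CPM in Il10-EGFP− and 437 to 511 CPM in Il10-EGFP+ T cells. Ighm had 61 and 79 against 143 and 179 counts (log2 fold change 1.30, adjusted p = 5.5e-06, edgeR), and Igkc had 6 and 18 against 81 and 116 counts (log2 fold change 3.12, adjusted p = 1.0e-09, edgeR). Cd22 had 4 and 0 against 14 and 18 counts, Jchain had 0 and 0 against 15 and 16 counts, and the defining marker Cd79a had 2 and 0 against 0 and 0 counts. Since B cells carry MHC class I as well as class II molecules, these values stand beside every class I result, and their part in it was not tested. The 4 heavy chain members and B2m were not called, while the B cell sum was higher in both Il10-EGFP+ libraries.

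Of the myeloid and dendritic cell list, 2 of 8 tested genes were called higher in edgeR, against 2.35% of all tested genes. The summed level was 71.9 to 107 CPM in Il10-EGFP− and 138 to 341 CPM in Il10-EGFP+ T cells. The called genes were Lyz2 and S100a8. Lyz2 had 29 and 23 against 66 and 34 counts (log2 fold change 1.06, adjusted p = 0.0414 in edgeR and 0.415 in DESeq2). S100a8 had 1 and 17 against 58 and 28 counts (log2 fold change 2.35, adjusted p = 0.000582 in edgeR and 0.804 in DESeq2). At an unadjusted p under 0.05 in edgeR, 6 of the 8 were higher, against 15.5% of all tested genes in either direction. This adds S100a9 (3 and 24 against 40 and 12 counts) and Csf1r (0 and 1 against 11 and 1). It also adds Fcer1g (5 and 1 against 12 and 9) and Tyrobp (3 and 3 against 17 and 7). S100a9 overlapped between the populations, and Csf1r passed the filter only through Il10-EGFP+ replicate 1. Itgam (8 and 3 against 6 and 4) and Cd68 (4 and 1 against 4 and 1) were flat. The defining markers Adgre1, Xcr1 and Flt3 had 0 counts in all libraries. Of the MHC class II list, 1 of 7 tested genes was called higher in edgeR, where the share over all tested genes was 2.35%. The summed level was 103 to 168 CPM in Il10-EGFP− and 212 to 315 CPM in Il10-EGFP+ T cells. H2-Aa, a class II chain, rose from 16 and 19 to 60 and 44 counts (log2 fold change 1.67, adjusted p = 0.000523, edgeR; 0.0405, DESeq2), and H2-Eb1 had 17 and 20 against 43 and 25 counts (log2 fold change 0.98, adjusted p = 0.118, edgeR). The class II genes thus held a called member where the class I heavy chains held none, and the difference between the lists was not tested.

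Of the CD8 T or NK cell list, 1 of 5 tested genes was called higher in edgeR, against 2.35% of all tested genes. It was Gzma, which encodes granzyme A and is also made by activated CD4+ T cells. Gzma had 9 and 18 against 31 and 31 counts (log2 fold change 1.29, adjusted p = 0.0466 in edgeR and 0.442 in DESeq2). The summed level of the list was 46.2 to 90.5 CPM in Il10-EGFP− and 96.7 to 111 CPM in Il10-EGFP+ T cells, and Ncr1 had 0 counts in all libraries. Cd8a had 4 and 10 against 3 and 3 counts, and Cd8b1 had 18 and 17 against 7 and 13 counts. Both were lower in Il10-EGFP+ T cells without overlap, and neither was called by edgeR (adjusted p = 0.604 and 0.539). Nkg7, a cytotoxic granule gene, had 2 and 9 against 13 and 22 counts and a log2 fold change of 1.74 (edgeR adjusted p = 0.0739), and Eomes, which was not tested, had 0 and 2 against 2 and 5 counts. Of the CD4+ T cell list, 1 of 11 genes was called higher, Trac, the constant region of the T cell receptor α chain, with 363 and 344 against 438 and 553 counts (log2 fold change 0.59, adjusted p = 0.00449, edgeR). Trbc2, its β chain counterpart and the most abundant gene of the list, had 1019 and 823 against 860 and 809 counts and a log2 fold change of -0.03 (edgeR adjusted p = 0.948). The part of these lists in the Erap1 result was not tested.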

How the data were processed

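RNA of the 2 sorted populations, in 4 libraries, was sequenced with the QuantSeq 3′ FWD protocol. The authors deposited raw read counts for each Ensembl gene (STAR 2.5.2a, HTSeq 0.6.0 and GRCm38 per the labels) and log2 values, the rlog output of DESeq2. The release of the annotation and the strand option are not given in the sources used here. The methods state that molecular identifiers served to assess duplicates and to remove amplification bias. They leave unclear if this step had already been applied to the raw counts. RNA was extracted with the Picopure kit per the methods and the PureLink kit per the labels.

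From the counts, 9608 genes that reached 10 counts summed over the 4 libraries were fitted in edgeR 4.0.16 (R 4.3.3) with TMM factors and the quasi-likelihood test, with Benjamini-Hochberg adjustment over all of them and a threshold of 0.05. Each standard error was the log2 fold change divided by the root of its F statistic. The p-values rest on 2 libraries per population, with the spread of each gene moderated by that of all tested genes. DESeq2 1.42.0 and limma 3.58.1 were alternatives, with other scalings and filters, a replicate term and the omission of each library. Scripts were tested on simulated data. Gene models came from GENCODE M21 and promoters from RefSeq, both on GRCm38. The gene table lacked symbols for 419 of 47643 identifiers. The named genes are the 10 members and, from each other list, every called gene and the 2 with the highest mean CPM. Other marker genes were named after their values were seen. A gene that the rule names is not reported here. The members and lists were chosen with earlier results of these data known.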

Additional observations from a re-analysis of the deposited data

How the results depend on the processing

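Of the 10 members, H2-D1, H2-T23, Tap2, Tapbp and Erap1 kept the sign of their log2 fold change under every alternative that gave a value. No uncalled member became called. Those that turned in sign were H2-K1 (0.0018 with at least 10 counts in every library, and -0.096 to 0.088 without each library in turn), H2-Q7 (-0.34 to 0.44 without each library), B2m (-0.023 to 0.168), Tap1 (-0.0036 with library sizes alone, and -0.18 to 0.21 without each library) and Nlrc5 (-0.44 to 0.29). The H2-K1 turns came without Il10-EGFP− replicate 1 (0.0877) and Il10-EGFP+ replicate 1 (0.0823), those of H2-Q7 (-0.107) and Tap1 (-0.0657) without Il10-EGFP− replicate 2 or Il10-EGFP+ replicate 1, and that of Nlrc5 without Il10-EGFP− replicate 1 (0.126) or Il10-EGFP+ replicate 2. The summed heavy chains ran from -0.012 to 0.11 without each library in turn. The cause of these turns was not tested.

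The count of called members, 1, became 0 with DESeq2 and with the DESeq2 replicate block, and was 0 to 1 without each library in turn. The 393 calls over all genes became 112 with DESeq2, 197 with limma on the rlog values, 39 with the DESeq2 replicate block and 201 to 264 without each library in turn. With the replicate block in edgeR, 560 genes were called, Erap1 among them (log2 fold change -1.10, adjusted p = 0.00264), and the DESeq2 block gave Erap1 an adjusted p of 0.530. Same-numbered libraries deviated from their group means with a correlation of 0.0177 over 6781 genes. With 2 libraries per population this value cannot decide whether the numbers mark pairs, and the main fit took the libraries as unpaired.

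Peptide generation (1 called) had 0 calls with DESeq2, 2 with the edgeR block, 0 with the DESeq2 block and 0 to 1 without each library. Loading and folding (0) had 1 with limma voom, 1 with the edgeR block and 0 to 1 without each library, lower in Il10-EGFP+ T cells without Il10-EGFP− replicate 1 and higher without Il10-EGFP− replicate 2. The IFNγ receptor list (1) had 0 with library sizes alone, DESeq2, limma on rlog values or the DESeq2 block, 2 with limma voom or the edgeR block, and 0 to 1 without each library. CD4+ T cell markers (1) had 2 with the edgeR block, 0 with the DESeq2 block and 0 to 1 without each library. CD8 T or NK cell markers (1) had 0 with library sizes alone, at least 10 counts in every library, DESeq2, limma on rlog values or the DESeq2 block, 2 with the edgeR block and 0 to 2 without each library. B cell markers (4) had 1 with at least 10 counts in every library, 2 with DESeq2, limma on rlog values or the DESeq2 block and 3 to 4 without each library. Myeloid and dendritic cell markers (2) had 1 with library sizes alone, at least 10 counts in every library or limma voom, 0 with DESeq2, limma on rlog values or the DESeq2 block and 0 to 3 without each library. MHC class II markers (1) had 0 with the DESeq2 block and 1 to 2 without each library. Heavy chains and regulators had 0 throughout. A lone library left in a population was assumed to vary like the other population.

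Depth limits the scarcer members most, since 5 of the 10 had a mean under 100 counts and standard errors ran from 0.12 (B2m) to 0.41 (Tap2).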

Other observations

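Values of some genes outside the members are given here, chosen after they were seen. Those of H2-T24 and Mr1 rested mostly on 1 library. H2-T24 had 1 and 12 counts across the Il10-EGFP− libraries, against 3 and 3 across the Il10-EGFP+ libraries. Mr1, which presents vitamin B metabolites to MAIT cells, had 0 and 3 against 1 and 9 counts. H2-M3, which presents formylated peptides, had 7 and 9 against 17 and 12 counts, without overlap, and a log2 fold change of 0.95 with a standard error of 0.54 (adjusted p = 0.408, edgeR). Ciita, the class II counterpart of Nlrc5, had 1 and 0 against 0 and 2 counts and was not tested, while H2-Aa was called. Nfkb1, a subunit of the factor that binds enhancer A, had 68 and 66 against 43 and 41 counts and a log2 fold change of -0.57 (edgeR adjusted p = 0.235).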
